A study of Macaca mulatta with 2 samples.

Results

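The TGF-beta and BMP signalling genes described here are 10 genes found by symbol in the deposited expression table, namely *TGFB1*, *TGFB2*, *TGFB3*, *TGFBR1*, *TGFBR2*, *TGFBR3*, *BMP4*, *BMP7*, *GREM1* and *LTBP1*. All 10 were present among 16684 listed genes. RNA-seq was performed on total RNA of optic nerves from *Macaca mulatta* that were wild-type and untreated, in 1 group of 2 libraries named Rep1 and Rep2. The nerves were taken after death as discarded tissue. The methods of the study give 1 male aged 12 years as their source, whereas the design text gives 2 animals, so the libraries are not known to be biological replicates and their spread may be partly technical. Values are TPM, a measure of transcript abundance with the same total in each library, which is corrected for gene length and therefore allows levels of different genes to be set side by side within a library. With 1 condition there was no comparison between groups and no test, and the difference between the libraries is the replicate error of each level.

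TGF-beta ligands are secreted in a latent form, which LTBP1 anchors in the extracellular matrix until it is activated. The active ligand is bound by the type II receptor TGFBR2, which phosphorylates the type I receptor TGFBR1, and TGFBR1 in turn phosphorylates SMAD2 and SMAD3, whereas BMP ligands act through other receptors and SMAD1, SMAD5 and SMAD9. TGFBR3, or betaglycan, presents ligands to the receptors, and GREM1 is a secreted protein that binds BMP ligands and blocks them. In the optic nerve head the pathway is known for its control of extracellular matrix made by astrocytes and lamina cribrosa cells, and TGF-beta 2 has been widely studied in glaucoma.

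The ligands belong to 1 family of related sequences, so the last 90 coding bases before the stop codon are shown to let a reader see how far reads of the TGF-beta transcripts can be told apart. This stretch encodes the end of the mature ligand. Sequences were read from Mmul_10, each lies in 1 coding exon, and capitals mark the bases that differ from *TGFB1*. The *TGFB1* stretch lies on chromosome 19 from 40575005 to 40575094 on the minus strand, that of *TGFB2* on chromosome 1 from 75934959 to 75935048 on the plus strand, and that of *TGFB3* on chromosome 7 from 138082324 to 138082413 on the minus strand.
TGFB1: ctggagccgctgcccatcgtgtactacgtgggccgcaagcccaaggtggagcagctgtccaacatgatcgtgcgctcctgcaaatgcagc
TGFB2: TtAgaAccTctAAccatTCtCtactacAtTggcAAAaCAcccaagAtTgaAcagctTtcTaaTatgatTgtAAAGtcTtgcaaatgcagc
TGFB3: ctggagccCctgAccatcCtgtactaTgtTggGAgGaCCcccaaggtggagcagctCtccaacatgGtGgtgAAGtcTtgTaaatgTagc
*TGFB2* differed from *TGFB1* at 28 of 90 bases and *TGFB3* at 19, and the longest identical runs within the stretch were 12 and 17 bases. Over the whole coding sequences of all 45 pairs of the 10 genes, no exact run longer than 17 bases was shared.

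The same stretch is shown for the BMP ligands, with capitals where *BMP7* differs from *BMP4*, because their levels are compared below. It lies on chromosome 7 from 116060206 to 116060295 for *BMP4* and on chromosome 10 from 92332826 to 92332915 for *BMP7*, both on the minus strand.
BMP4: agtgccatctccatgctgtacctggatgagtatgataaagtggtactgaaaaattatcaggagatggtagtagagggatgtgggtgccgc
BMP7: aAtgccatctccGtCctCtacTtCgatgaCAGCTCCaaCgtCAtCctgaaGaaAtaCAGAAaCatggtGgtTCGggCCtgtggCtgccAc
These stretches differed at 33 of 90 bases, with a longest identical run of 10 bases. In a search of 50-base words of the transcript of longest coding sequence against all other annotated transcripts, *TGFB1*, *TGFB2*, *TGFB3*, *TGFBR1*, *TGFBR3*, *BMP4* and *LTBP1* shared none. *TGFBR2* shared 26.1% of its words with *LOC114675335*, another annotated gene. Reads of *TGFBR2* may therefore have been assigned elsewhere or left out, so its level is uncertain by an amount that was not measured. *BMP7* shared 3.21% and *GREM1* 3.01% of their words, and each shares exon bases with a gene on the opposite strand (93 and 172 bases), where reads cannot be told apart without strand.

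As deposited, 8 of the 10 genes were higher in Rep2 and 2 in Rep1, by any amount. The share of all genes higher in Rep2 by any amount was not computed, but their median difference also lay on the side of Rep2. On the log2(TPM + 1) scale, 7 of the 10 were at least 2-fold higher in Rep2, and this was so for 51.3% of the 14693 genes that either library held above 0. In the other direction 1 gene, *TGFBR1*, was at least 2-fold higher in Rep1, beside 14.8% of all genes. The median difference (Rep1 minus Rep2) was -1.85 for the 10 genes and -1.07 for all genes. With the libraries centred on their median ratio instead (log2 shift of -1.19, the scaling by the median of ratios), 5 genes were at least 2-fold higher in Rep2 and 2 in Rep1, beside 33.8% and 23.7% of all genes. The direction of *TGFB1*, *TGFB2*, *TGFB3*, *TGFBR3*, *BMP4* and *LTBP1* turned under at least 1 of the other scales. A further scale multiplied Rep1 by 6.82, the median ratio over the nerve cell markers given next, and was chosen after the data were seen. The median of ratios and the nerve markers both raise Rep1 against Rep2, and a value of 0 stays at 0 on any scale, so *TGFBR1*, higher in Rep1, and *GREM1*, at 0 there, could not turn under them.

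The libraries also differed in their levels of cell type markers. All 25 markers of oligodendrocytes, astrocytes, endothelium, pericytes and fibroblasts were at least 2-fold higher in Rep2 as deposited, beside 51.3% of all genes. After the median of ratios 19 of the 25 were, beside 33.8% of all genes. The summed level of the 25 was 48678 TPM in Rep1 and 234585 TPM in Rep2, with *VWF* and *NOTCH3* listed at 0 in Rep1. As a check of the tissue label, *MBP*, a myelin gene of oligodendrocytes, was at 43721 TPM in Rep1 and at 199595 TPM in Rep2, and *GFAP*, of astrocytes, at 658 and 4331 TPM. *MBP* alone made up most of the summed level in both libraries. The other astrocyte markers in Rep1 were *S100B* (323 TPM), *SLC1A3* (99.4 TPM), *GJA1* (9.11 TPM), *AQP4* (3.26 TPM) and *ALDH1L1* (1.23 TPM). Of 8 photoreceptor markers, 6 were at least 2-fold higher in Rep1, beside 14.8% of all genes, and 0 in Rep2. After the median of ratios 7 were at least 2-fold higher in Rep1, beside 23.7% of all genes. The 8 summed to 3597 TPM in Rep1 and 5.35 TPM in Rep2, where *CRX* was listed at 0. Most of the Rep1 sum was *GNAT1* (2763 TPM) and *PDE6G* (514 TPM). *RCVRN* (2.80 and 0.912 TPM) and *SAG* (1.74 and 1.82 TPM) were within 2-fold on the log2(TPM + 1) scale, and *SAG* was the 1 marker higher in Rep2. Of 6 markers of microglia and macrophages, 4 were at least 2-fold higher in Rep2 and 0 in Rep1, with sums of 194 and 304 TPM, of which *AIF1* (113 and 64.5 TPM) and *CSF1R* (61.3 and 62.2 TPM) made up most in Rep1. Of 4 markers of the pigment epithelium, 1 was at least 2-fold higher in Rep2 and 1, *RLBP1* (76.7 and 6.12 TPM), in Rep1, with sums of 104 and 80.2 TPM. Of 6 markers of retinal ganglion cells, 1 was at least 2-fold higher in Rep2 and 0 in Rep1, with sums of 186 and 204 TPM and *POU4F2* at 0 in both. After the median of ratios, 3 markers of microglia and macrophages were at least 2-fold higher in Rep2 and 2 in Rep1. These counts were 0 and 2 for the pigment epithelium and 0 and 1 for retinal ganglion cells. Their background was 51.3% and 14.8% of all genes as deposited, and 33.8% and 23.7% after the median of ratios. The part of these differences in the levels below was not tested, and in bulk RNA fewer cells of a type and less RNA per cell cannot be told apart. Rep1 was also the shallower library, since each read there added 17.2 times the TPM of a Rep2 read. The read numbers given with the levels were recovered from the TPM steps and are lower bounds.

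**Figure D1:**
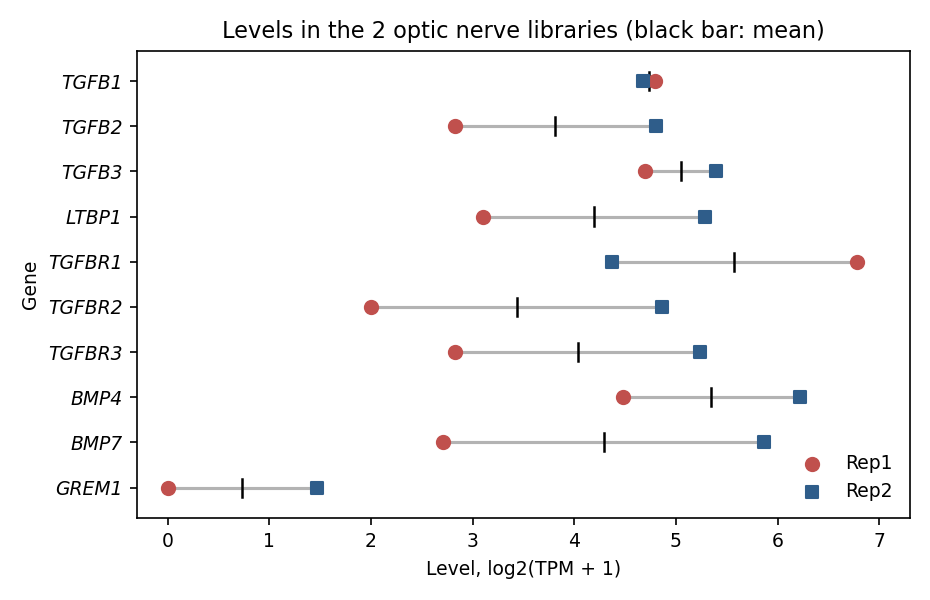
Levels of the 10 genes on the log2(TPM + 1) scale (x axis) in Rep1 (circles) and Rep2 (squares), 1 gene per line, with a black bar at the mean of both. TGFB1 lies at nearly the same level in both libraries, TGFBR1 is higher in Rep1, and the other 8 are higher in Rep2 on this deposited scale, where the direction of TGFB1, TGFB2, TGFB3, TGFBR3, BMP4 and LTBP1 turns under another scaling.

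*TGFB1* encodes the ligand best known for immune regulation and scarring and is found at 40574859 to 40598883 of chromosome 19 (Mmul_10, minus strand), in the build used for all positions here. Both libraries held it at like levels, 26.8 TPM in Rep1 and 24.5 in Rep2, on at least 13 and 204 reads, giving 25.6 ± 1.64 TPM (SD, n = 2). The libraries nearly coincided at this gene on the deposited scale, with a log2 difference of 0.13 (Rep1 minus Rep2). This closeness depends on the scale, because the difference was 1.27 after scaling by the median of ratios and 2.85 with Rep1 scaled to the nerve markers, where the mean was 104 TPM. Without the 10 most abundant genes it was -0.040. Its rank among all genes went from percentile 78.1 in Rep1 to 64.8 in Rep2.

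*TGFB2*, which encodes the TGF-beta isoform that predominates in the eye, lies on chromosome 1 from 75840393 to 75937710. It was at 6.10 TPM in Rep1 and at 26.8 TPM in Rep2, on at least 5 and 378 reads, with a mean of 16.5 ± 14.7 TPM (SD, n = 2). Rep2 was 4.40-fold higher as deposited, and the direction turned when Rep1 was scaled to the nerve markers. *TGFB3*, the isoform known from palate closure and wound repair, lies on chromosome 7 from 138081226 to 138106018. In Rep1 24.8 TPM were measured and in Rep2 41.2 TPM, or 33.0 ± 11.6 TPM (SD, n = 2), on at least 2 and 57 reads. Rep2 was 1.66-fold higher as deposited, and this turned after scaling by the median of ratios (0.45) and to the nerve markers (2.01).

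Shares within a library do not depend on how that library is scaled. *TGFB3* took 43.0% of the summed TPM of the 3 ligands in Rep1 and 44.5% in Rep2. *TGFB1* took 46.4% in Rep1 and 26.5% in Rep2, and *TGFB2* took 10.6% and 29.0%. The 3 ligands therefore stood in the order *TGFB1*, *TGFB3*, *TGFB2* in Rep1 and *TGFB3*, *TGFB2*, *TGFB1* in Rep2, and only the share of *TGFB3* was close in both. In Rep2 *TGFB1* and *TGFB2* were within 1.10-fold of each other, whereas in Rep1 *TGFB1* was 4.39-fold higher.

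*LTBP1*, the anchor of latent TGF-beta, is the longest of these genes, on chromosome 13 from 75530999 to 75980724 with 34 exons. It was at 7.59 TPM in Rep1 and at 38.1 TPM in Rep2, on at least 17 and 1465 reads, or 22.8 ± 21.6 TPM (SD, n = 2). Among the 4 latent TGF-beta binding proteins, *LTBP1* took 19.8% of the summed TPM in Rep1 and 9.84% in Rep2. *LTBP4* took the largest share of the family in Rep2, 57.9%, and *LTBP2* in Rep1, 32.8%. The library difference of *LTBP1* was -2.19 as deposited and 0.43 when Rep1 was scaled to the nerve markers.

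**Figure D2:**
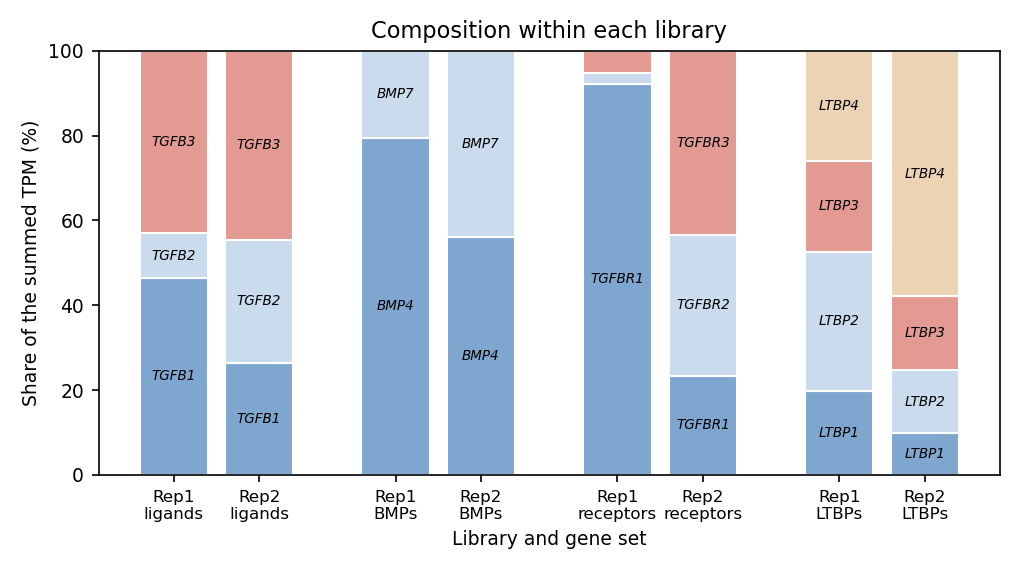
Stacked bars of the share of summed TPM (y axis, percent) that each gene takes within Rep1 and Rep2, for the TGF-beta ligands, the BMP ligands, the receptors with betaglycan, and the LTBP family. TGFB3 holds a like share in both libraries, and TGFBR1 makes up 92.3% of the receptor sum in Rep1 and 23.3% in Rep2.

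The type I and type II receptors were each higher in a different library. *TGFBR1*, the type I receptor kinase, lies on chromosome 15 from 43763472 to 43812747 on the minus strand. It was at 109 TPM in Rep1 and at 19.7 TPM in Rep2, on at least 122 and 381 reads, and its mean was 64.2 ± 62.9 TPM (SD, n = 2). It was the highest of the 10 genes in Rep1 and the ninth in Rep2, moving from percentile 90.8 of all genes to 60.5. Its log2 difference was 2.40, which ran from 2.25 to 5.16 over all scales and pseudocounts.

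*TGFBR2*, the type II receptor that binds the ligand, lies on chromosome 2 from 17035106 to 17123221 on the minus strand. It was at 3.0 TPM in Rep1 and at 28.1 TPM in Rep2, on at least 14 and 2259 reads, or 15.6 ± 17.8 TPM (SD, n = 2). The receptor pair was thus ordered oppositely in the libraries. *TGFBR1* was 36.2-fold above *TGFBR2* in Rep1, and in Rep2 *TGFBR2* was 1.43-fold above *TGFBR1*. This ratio within a library is not changed by scaling, although the sequence shared with *LOC114675335* bears on *TGFBR2* in both libraries.

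*TGFBR3* lies on chromosome 1 from 132294561 to 132501703 on the plus strand. It was at 6.11 TPM in Rep1 and at 36.7 TPM in Rep2, on at least 6 and 619 reads, with a mean of 21.4 ± 21.6 TPM (SD, n = 2). Betaglycan was 2.04-fold above *TGFBR2* in Rep1 and 1.30-fold above it in Rep2, but the sequence that *TGFBR2* shares with *LOC114675335* leaves the order in Rep2 uncertain. Its library difference turned from -2.41 to 0.18 when Rep1 was scaled to the nerve markers.

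*BMP4*, a ligand that patterns the dorsal eye in development, lies on chromosome 7 from 116059900 to 116138327. It was at 21.3 TPM in Rep1 and at 73.3 TPM in Rep2, on at least 8 and 473 reads, or 47.3 ± 36.8 TPM (SD, n = 2). This made it the highest of the 10 genes in Rep2, at percentile 85.0 of all genes. *BMP7*, a ligand needed for eye and kidney development, lies on chromosome 10 from 92330613 to 92430858. It was at 5.52 TPM in Rep1 and at 57.5 TPM in Rep2, on at least 1 and 179 reads, or 31.5 ± 36.7 TPM (SD, n = 2). *BMP4* was above *BMP7* in both libraries, 3.86-fold in Rep1 and 1.28-fold in Rep2, taking 79.4% and 56.1% of their sum. Among the 9 genes above 0 in both libraries *BMP7* had the largest deposited difference, 10.4-fold higher in Rep2, and its log2 difference stayed below 0 under every scale, at -0.60 with Rep1 scaled to the nerve markers. That of *BMP4* was -1.74 as deposited and 0.98 on the nerve markers.

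*GREM1* lies on chromosome 7 from 9063054 to 9080028 on the plus strand. Its listed value was 0 in Rep1, against 1.76 TPM in Rep2, at percentile 23.3 of all genes in that library and the lowest of the 10 genes in both. Among the 200 genes nearest to it in Rep2 level, 52.0% were also listed at 0 in Rep1, and the transcript was not detected there, which does not show that it was missing. It was the 1 gene of the 10 listed at 0 in Rep1, beside 30.2% of all genes. In Rep2 it made up 1.33% of the summed TPM of *GREM1*, *BMP4* and *BMP7*.

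**Figure D3:**
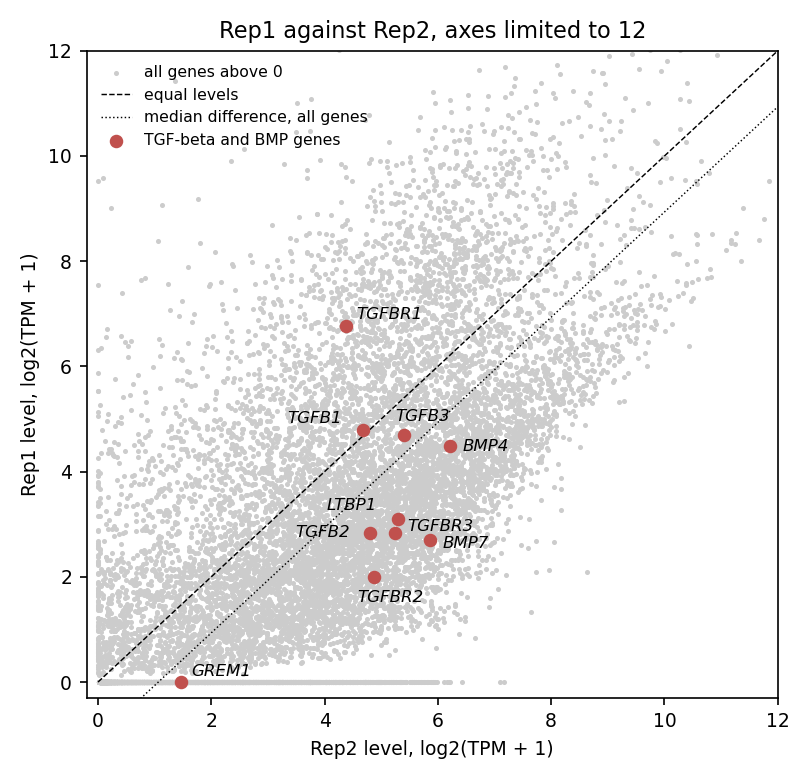
Rep1 level against Rep2 level on the log2(TPM + 1) scale for all genes above 0 (grey) and the 10 genes (red), with a dashed line of equal levels and a dotted line at the median difference of all genes (39 genes beyond 12 on an axis are not drawn). TGFBR1, TGFB1 and TGFB3 lie above the dotted line, and TGFBR2 and BMP7 lie farthest below it.

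Ordered by mean log2(TPM + 1), the genes stood as *TGFBR1*, *BMP4*, *TGFB3*, *TGFB1*, *BMP7*, *LTBP1*, *TGFBR3*, *TGFB2*, *TGFBR2* and *GREM1*. Of the 9 neighbouring pairs, only *TGFBR2* and *GREM1* were more than 1 SD apart (2.08 SDs), where the SD came from the library differences of the 200 genes nearest in mean level. The other 8 gaps ran from 0.0555 to 0.277 SDs, so no neighbours among the 9 higher genes differed beyond the spread between libraries. Gaps between genes farther apart in the order were not set against the spread. Over all 45 pairs, 24 had the same order in both libraries. Every pair with *GREM1*, the lowest gene in both, is among the 24, so this count overstates how far the order of the 9 higher genes held. The SD of a single library for genes at these levels was 0.93 on the log2 scale for *GREM1* and 1.51 to 1.72 for the other 9.

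Likeness was taken as the distance over both libraries on the log2(TPM + 1) scale to 148 other genes of the pathway and marker lists, which with 2 libraries describes the levels only. The nearest gene to *TGFBR2* was *CD68* (0.13), to *TGFB1* the BMP and activin receptor *ACVR1* (0.17), and to *BMP4* the neuronal gene *SNCG* (0.22). *LTBP1* was nearest to *TGFBR3* (0.28) and *BMP7* to the pericyte receptor *PDGFRB* (0.35). *TGFB3* and *TGFB2* were nearest to the endothelial genes *PECAM1* (0.40) and *CLDN5* (0.40). *TGFBR1* had the most distant neighbour, *LDLRAD4* (0.61), an inhibitor of TGF-beta signalling.

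Of 108 genes of the wider pathway, written as lists by role, 102 were listed and 95 were above 0 in at least 1 library. As deposited, 52 of the 95 were at least 2-fold higher in Rep2 and 10 in Rep1, beside 51.3% and 14.8% of all genes, and 22 were listed at 0 in Rep1, beside 30.2%. After scaling by the median of ratios these counts were 36 and 20, beside the background shares of 33.8% and 23.7%. The same shares of all genes are the background of each role below. The plot of library differences by role shows each gene, and differences between roles were not tested.

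Among ligands, 22 of 28 listed genes were above 0, of which 9 were at least 2-fold higher in Rep2 and 1, *GDF11*, in Rep1, at 1.98 and 0.138 TPM, beside 51.3% and 14.8% of all genes. After the median of ratios these counts were 4 and 4. Outside the 10 genes the highest ligands were *INHBA*, which encodes an activin subunit, at 9.86 TPM in Rep1 and at 9.57 TPM in Rep2, *GDF1* at 2.36 and 12.3 TPM, and *GDF10* at 7.63 and 6.94 TPM. *BMP4*, *TGFB3*, *BMP7*, *TGFB1* and *TGFB2* all had higher means than these. Of the secreted inhibitors *FSTL3*, a binder of activin, had the highest mean, at 3.23 TPM in Rep1 and at 82.5 TPM in Rep2, which Rep2 carried. *CHRDL1*, a BMP antagonist, was at 14.7 and 56.6 TPM, and *TWSG1*, which modulates BMP binding, at 9.40 and 55.1 TPM, so both were above *FSTL3* in Rep1. Of 12 inhibitors above 0, 8 were at least 2-fold higher in Rep2 and 7, *GREM1* among them, were listed at 0 in Rep1, beside 51.3% and 30.2% of all genes. With the median of ratios 6 were past 2-fold in Rep2 and 0 in Rep1.

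Of 12 receptors, 5 were at least 2-fold higher in Rep2 and 3 in Rep1, and 3 and 5 after the median of ratios (all genes: 51.3% and 14.8% as deposited, 33.8% and 23.7% after it). The 3 of the deposited scale were *TGFBR1* and the activin type II receptors *ACVR2A*, at 156 TPM in Rep1 and at 6.14 TPM in Rep2, and *ACVR2B*, at 17.8 and 1.73 TPM. The BMP type II receptor *BMPR2* was at 6.02 and 14.3 TPM, and *ACVR1*, a type I receptor for BMPs, at 29.8 and 26.0 TPM. Of 8 co-receptors above 0, 7 were at least 2-fold higher in Rep2 (51.3% of all genes), among them *ENG*, the endothelial co-receptor endoglin, at 24.3 TPM in Rep1 and at 57.8 TPM in Rep2, and the BMP co-receptor *RGMA* at 2.17 and 25.9 TPM, whereas *RGMB* was at 24.7 and 18.8 TPM. After the median of ratios 4 were at least 2-fold higher in Rep2 and 1 in Rep1. In the list of latency and activation 9 of 12 were at least 2-fold higher in Rep2 (51.3% of all genes), and 6 after the median of ratios (33.8%), with 0 in Rep1 on both scales. *LTBP4* was at 9.97 TPM in Rep1 and at 224 TPM in Rep2, the integrin subunit *ITGAV*, part of receptors that activate latent TGF-beta, at 13.2 and 102 TPM, and *LTBP3* at 8.20 and 67.7 TPM.

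Of 15 SMADs and cytoplasmic regulators, 5 were at least 2-fold higher in Rep1 (14.8% of all genes), 3 in Rep2 (51.3%) and 7 in neither, with a median difference of -0.16 as deposited and 1.02 after the median of ratios, when 8 were at least 2-fold higher in Rep1 and 3 in Rep2. *SMAD4*, the partner shared by both branches, was at 423 TPM in Rep1 and at 32.1 TPM in Rep2. *SMAD2*, a substrate of TGFBR1, was at 133 and 52.9 TPM, and the inhibitory *SMAD7* and *SMAD6* were at 129 and 47.0 TPM and at 45.6 and 5.18 TPM. *LDLRAD4* was at 70.9 and 21.0 TPM. The receptor-regulated SMADs were split, since *SMAD3* (33.5 and 39.3 TPM) and *SMAD5* (72.8 and 81.3 TPM) were within 2-fold, whereas *SMAD1* was at 1.73 and 42.1 TPM and *SMAD9* was listed at 0 in Rep1 and at 6.07 TPM in Rep2. *SMAD3*, *SMAD5*, *SMAD1* and *SMAD9* fall outside the naming rule and were named after their values were seen.

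**Figure D4:**
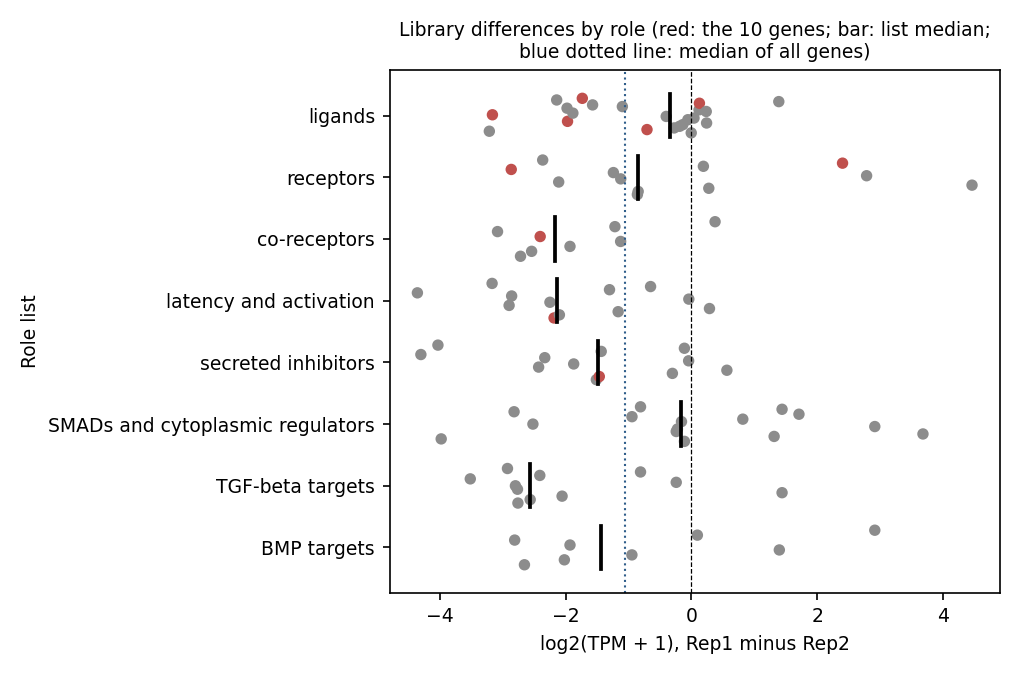
Library difference, log2(TPM + 1) in Rep1 minus Rep2 (x axis), of each gene above 0 in the 8 role lists (rows), with the 10 genes in red, a black bar at the list median and a dotted line at the median of all genes (-1.07). On this deposited scale the medians of co-receptors, latency genes and TGF-beta targets lie below -2, and that of the SMADs lies near 0 and rises to 1.02 after scaling by the median of ratios.

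Of 11 genes that TGF-beta is known to raise, 8 were at least 2-fold higher in Rep2 and 1, *SMAD7*, in Rep1, both as deposited (51.3% and 14.8% of all genes) and after the median of ratios (33.8% and 23.7%). They included the collagen chains *COL1A2*, at 320 TPM in Rep1 and at 2440.1 TPM in Rep2, and *COL1A1*, at 138 and 943 TPM, and smooth muscle actin *ACTA2*, at 83.2 and 498 TPM. Both collagen chains are also in the list of fibroblast markers. The list's median difference was -2.57, beside -2.76 for the 25 nerve markers. The latter is the difference of *COL1A1* itself, which the nerve scale sets to 0, so the 2 medians are not independent. Of 8 BMP targets, 4 were at least 2-fold higher in Rep2 (51.3% of all genes) and 2 (14.8%), *SMAD6* and the transcription factor *HEY1* (9.47 and 2.98 TPM), in Rep1, against 2 and 3 after the median of ratios. The inhibitors of DNA binding *ID2* (389 and 751 TPM), *ID3* (73.1 and 466 TPM) and *ID1* (25.8 and 188 TPM) were the highest of the BMP targets in mean level.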

How the data were processed

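Bulk RNA-seq data of 2 untreated macaque optic nerve libraries were used. The authors amplified cDNA (SMARTer v4, a kit for low input), checked and trimmed the reads (FastQC 0.11.9, Trim Galore 0.6.6), mapped these on Mmul_10 (STAR 2.7.1a), counted per gene (featureCounts 1.5.3) and deposited TPM values, which sum to 1000000 in each library. Gene lengths, strand setting and treatment of multiple alignments are not given in the sources used here. A high transcript in 1 library lowers every other TPM there. The columns Rep1 and Rep2 match neither sample title and were taken as replicates of the 1 group.

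A library difference is log2(TPM + 1) in Rep1 minus that in Rep2 and understates changes of low genes. The 2-fold rule, percentiles and background shares cover the 14693 genes above 0 in at least 1 library. The depth is unknown, but the ratio of a gene's TPM values is a ratio of whole reads times a constant, found as 17.2. It gave whole read numbers for 99.9% of the 10168 genes above 0 in both (relative tolerance 1e-11, product of the numbers under 100000000). These numbers are the smallest that fit and thus lower bounds, and amplified copies are not independent molecules. No detection limit was computed. Positions and sequences came from the RefSeq annotation of Mmul_10, which held all 16684 symbols. The transcript with the longest coding sequence was used per gene.

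The text names the 10 genes, the 3 highest other genes of each role list and genes at least 2-fold higher in Rep1 with at least 1 TPM in both libraries. *GDF11* is outside that rule. The gene nearest in level to *TGFBR3* is not reported here. The members and lists were chosen with earlier results of these data known. The settings varied were the pseudocount (0.1), the scaling (median of ratios), TPM without the 10 most abundant genes, means of at least 1 TPM, the geometric mean, 500 nearest genes, the SD about the mean difference, and each library alone. Scaling Rep1 by 6.82, the median ratio of 23 nerve markers above 0 in both libraries, was added after seeing the data. Python 3.11, numpy 2.4.6, pandas 2.3.3 and matplotlib 3.10.9 were used, and the read numbers and the SD were tested on simulated data. No p-value was computed.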

Additional observations from a re-analysis of the deposited data

How the results depend on the processing

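No paired analysis was possible because only 1 group was measured. With Rep1 scaled to the nerve markers, the median library difference of the 10 genes turned from -1.85 to 0.52, and the median level was 46.2 TPM. On this scale 1 gene was at least 2-fold higher in Rep2 and 3 in Rep1, and 17 genes of the wider pathway were at least 2-fold higher in Rep2. This scaling multiplies every gene in Rep1 by 6.82. The shares of all genes past 2-fold were not computed on it, so these counts are no result about the named genes. With this scaling the difference of *TGFB2* turned to 0.61, of *TGFB3* to 2.01, of *TGFBR3* to 0.18, of *BMP4* to 0.98 and of *LTBP1* to 0.43. The median of ratios gave 2 genes at least 2-fold higher in Rep1 and turned *TGFB3* to 0.45. Leaving out the 10 most abundant genes turned *TGFB1* to -0.040. Keeping means of at least 1 TPM left 9 of the 10 genes and 0 listed at 0 in Rep1, as *GREM1* was removed. For single genes, 69 other values stayed within the spread and 13 moved beyond it without turning. The 69 are no measure of stability, since part of them could not have moved. Keeping means of at least 1 TPM leaves the difference of each kept gene unchanged. The median of ratios shifts a difference by at most 1.19, below the spread set for each gene. The median level ran from 6.85 TPM in Rep1 to 32.4 TPM in Rep2 and the share of *TGFB1* among the 3 ligands from 26.5% to 46.4%. For this share, a value of 1 library is by construction 0.707 SDs away from the mean of both. The median level is a median of gene means, and its SD came from the same 2 library values. Neither range therefore says anything about stability. In 4 of the 10 genes the SD was at least the mean. The depth of Rep1 limits all values resting on few reads there.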
